A study of Drosophila melanogaster with 24 samples.

Results

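The 4 transcripts described here come from genes of chromatin proteins in Drosophila melanogaster: SuUR (FBtr0076203), kis (FBtr0078144), HDAC3 (FBtr0078767) and His4r (FBtr0082962). They were chosen by name and not by their values, though earlier results of these data were known. Of the 13873 transcripts with a measurement, 16 could be named unambiguously. The reference table of fly genes lists each of the 4 transcript IDs under a single gene. Expression was measured on 24 one-colour NimbleGen arrays, and every value is a log2 level per transcript made with RMA, a method that subtracts background, gives all arrays the same distribution of probe signals and combines the probes of each transcript. A difference of 1 log2 is thus 2-fold. The arrays fall into 8 groups of 3, from the lol (Lobe-less) mutant strain and the w1118 control strain, each as female heads, male heads, female whole bodies and male whole bodies. All flies were adults of day 2 kept at 23 °C, and an RNA extraction pooled 100 bodies or heads. The series' title describes Lobe-less as a noncoding RNA with a role in shaping the mushroom bodies, the brain structures that flies use to learn odours. The sources used here do not say how the lol lesion was made or in which genetic background it lies.

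Chromatin packs DNA around histones, and its state sets which genes are read and when a region is copied. SuUR (Suppressor of Underreplication) holds back replication forks in heterochromatin, so that these regions stay underreplicated in polytene and other endocycling cells. The kis product, Kismet, is an ATPase of the CHD family of remodelers that belongs to the trithorax group and promotes transcription elongation, and in flies it is also known for a role in mushroom body axons and memory. HDAC3 removes acetyl groups from histone tails as the catalytic partner of the SMRTER corepressor. His4r encodes histone H4 from a gene outside the repeated histone cluster, whose transcript does not depend on DNA replication. Lists of related genes (11 heterochromatin genes and SuUR partners, 12 remodelers, 16 trithorax and Polycomb group genes, 16 deacetylases and corepressors, and 5 histone genes) could be matched to no measured transcript other than the 4 themselves, since the table carries transcript IDs and 16 of them could be named unambiguously. Of the 10 head, 9 ovary and female body, 9 testis and male body, 4 fat body and gut, and 4 muscle markers, 0 could be matched, so the labelled tissues were not checked against defining markers.

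Replicate arrays correlated across transcripts at 0.912 to 0.99, and no arrays held identical values. The arrays were also compared on 214 transcripts enriched in w1118 female bodies over w1118 female heads and alike in w1118 bodies of both sexes. By this choice the 3 w1118 female head arrays had to be low on average, so the set is no independent check of them. In 4 of the 12 head arrays these transcripts stood higher than in the rest. Their median was 10.58 on lol male head replicate 1, 10.37 on lol female head replicate 1, and 10.62 and 10.93 on w1118 male head replicates 1 and 2, against 8.68 to 9.11 on the other 8 head arrays and 13.06 to 13.85 on body arrays. These 4 arrays were picked by that level, and results in heads were also computed without them. That leaves a single w1118 male head array, whose variance is taken from the other groups. A second set, 1439 transcripts higher in male than in female w1118 bodies, had medians of 10.16 on lol male head replicate 1 and 9.88 and 10.67 on w1118 male head replicates 1 and 2. On lol female head replicate 1 its median was 8.42, against 8.4 to 8.6 on the other 8 head arrays. The cause was not tested. All comparisons came from 1 limma model over the 24 arrays, with p-values adjusted over all 13873 transcripts (Benjamini-Hochberg), and a transcript was called at an adjusted p under 0.05.

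**Figure D1:**
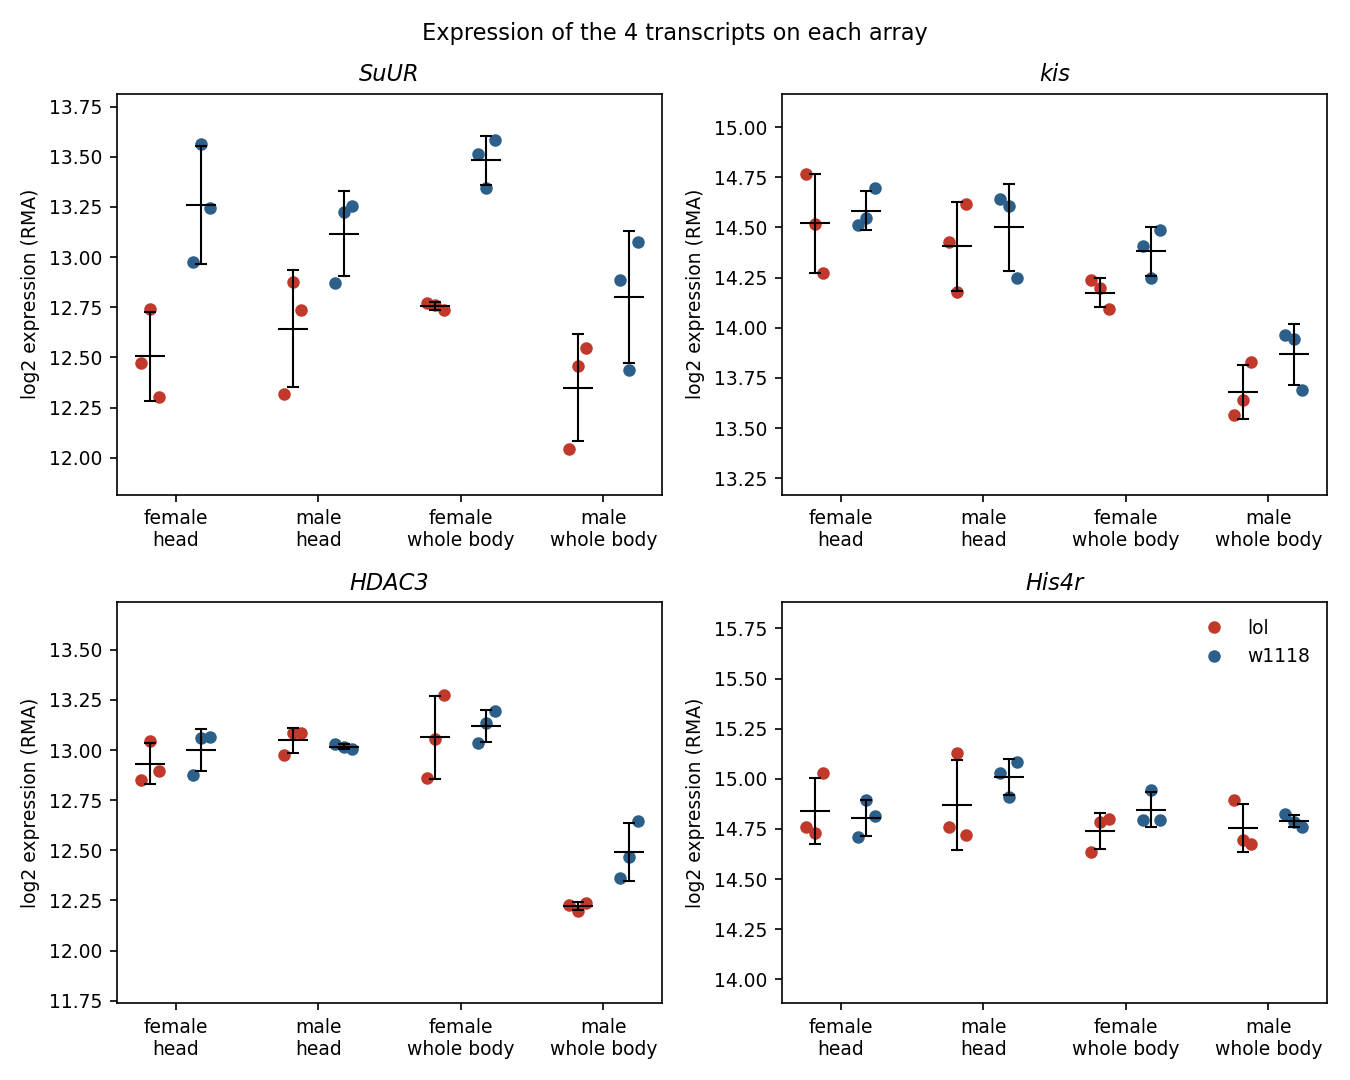
Level of the 4 transcripts on each array (y axis, log2 RMA expression, each panel spanning 2 log2 units) by sex and tissue (x axis), with lol in red left of w1118 in blue. Points are arrays, and the horizontal dash with bars is the mean ± SD of 3 arrays. SuUR lay lower in lol in each of the 4 pairs of groups. Within each strain SuUR, kis and HDAC3 had their lowest mean in male whole bodies, and the 8 group means of His4r lay within 0.27 log2.

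SuUR was lower in lol than in w1118 in heads and bodies of both sexes, and averaged over the 4 sex and tissue groups it stood at 65.9% of the w1118 level. In female heads its log2 levels were 12.47, 12.74 and 12.30 in lol, against 12.98, 13.56 and 13.24 in w1118. Each lol array thus lay below each w1118 array. The share of all transcripts whose arrays separate in this way is not given, here or below. Such separations are therefore description only. In female whole bodies the levels were 12.77, 12.76 and 12.73 in lol, against 13.52, 13.35 and 13.59 in w1118, again without overlap. In male heads they were 12.32, 12.88 and 12.74 in lol, against 12.87, 13.22 and 13.25 in w1118. In male whole bodies they were 12.05, 12.46 and 12.55 in lol, against 12.89, 12.44 and 13.08 in w1118. The male groups therefore overlapped at 1 array, the lowest w1118 array in each tissue.

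The fall of SuUR passed the test in females. The log2 difference was -0.76 ± 0.19 (SE) in female heads (adjusted p = 0.0323, limma) and -0.73 ± 0.19 in female whole bodies (adjusted p = 0.0346), which put lol females at 59.2% and 60.5% of the w1118 level. In males the differences were -0.47 in heads (95% interval -0.88 to -0.07, adjusted p = 0.224) and -0.45 in whole bodies (-0.85 to -0.05, adjusted p = 0.167), and did not pass. The averaged difference over the 4 groups, which rests on 12 arrays a side, was -0.60 ± 0.10 (95% interval -0.80 to -0.40, adjusted p = 0.000146). Whether the difference depends on sex was tested directly and did not pass: the effect in females minus that in males was -0.28 in heads (95% interval -0.85 to 0.29) and -0.28 in whole bodies (-0.85 to 0.30). Between heads and bodies the effect differed by -0.03 in females and -0.02 in males, with 95% intervals of -0.60 to 0.54 and -0.60 to 0.55. In RNA from whole heads and bodies, fewer cells that carry a transcript and less of it per cell cannot be told apart.

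The averaged fall kept its call under all 31 alternatives run, with differences between -0.65 and -0.54 and adjusted p between 1.77e-05 and 0.00152. It was -0.59 without the 4 head arrays (adjusted p = 0.00152). The separate calls in females were less stable. The call in female heads was lost without the 4 head arrays (-0.74, adjusted p = 0.0774), with the fit restricted to heads (-0.76, 0.119) or to the 6 arrays compared (-0.76, 0.162), and without any one of w1118 replicates 2 (-0.60, 0.205) and 3 (-0.76, 0.0864) and lol replicates 1 (-0.74, 0.107) and 3 (-0.65, 0.13). In female whole bodies it was lost without any one array except w1118 replicate 2 (adjusted p between 0.0923 and 0.131), and the difference lay between -0.79 and -0.67 over the 6 arrays left out in turn.

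**Figure D2:**
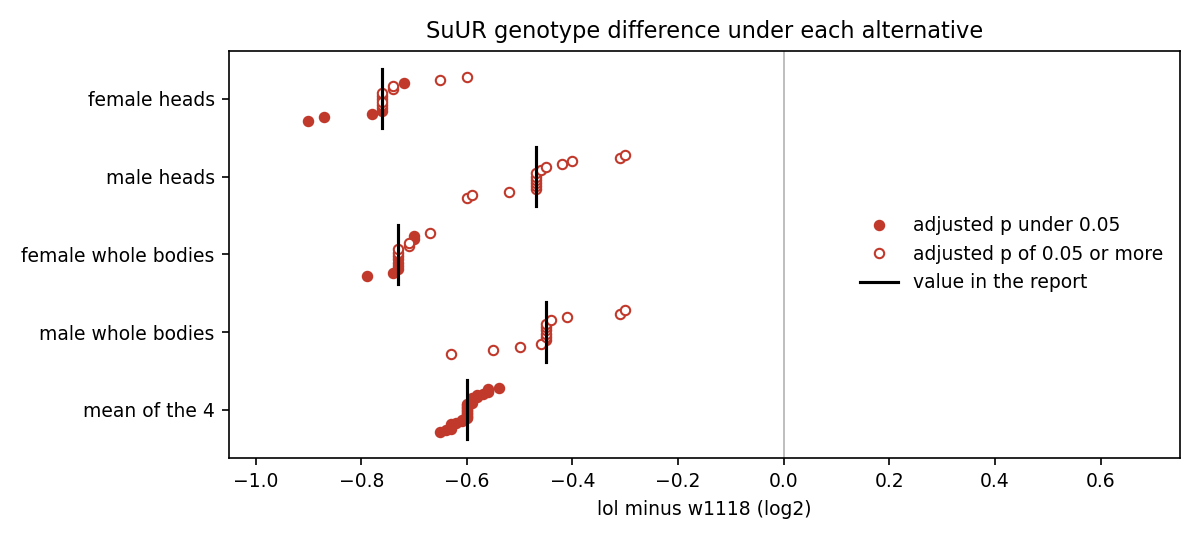
SuUR log2 difference, lol minus w1118 (x axis), in each sex and tissue and averaged over the 4 (rows). Each point is 1 alternative, an array left out included, filled where the adjusted p was under 0.05, and the black bar is the value given in the text. All points lie below 0, and all those of the average are filled and lie between -0.65 and -0.54.

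Of the 4 transcripts, SuUR was the only one called between the strains. One of 4 was called in female heads, where 3.63% of all transcripts were called, and 1 of 4 in female whole bodies, where 4.87% were. None of the 4 was called in male heads, against 4.68% of all transcripts, or in male whole bodies, against 8.65% (limma; at an unadjusted p under 0.05 there were SuUR in male heads, and SuUR and HDAC3 in male bodies). For the averaged difference 1 of 4 was called, against 19.6% of all transcripts. The median difference over the 4 was -0.07 in female heads, -0.12 in male heads, -0.16 in female whole bodies and -0.23 in male whole bodies, beside medians of 0, 0.01, 0.01 and -0.02 over all transcripts. Medians of 4 transcripts carry no test here and do not describe chromatin genes as a group. The averaged SuUR difference was larger in size than that of 93.8% of transcripts, and the corresponding shares were 50.9% for kis, 36.4% for HDAC3 and 25.5% for His4r.

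**Figure D3:**
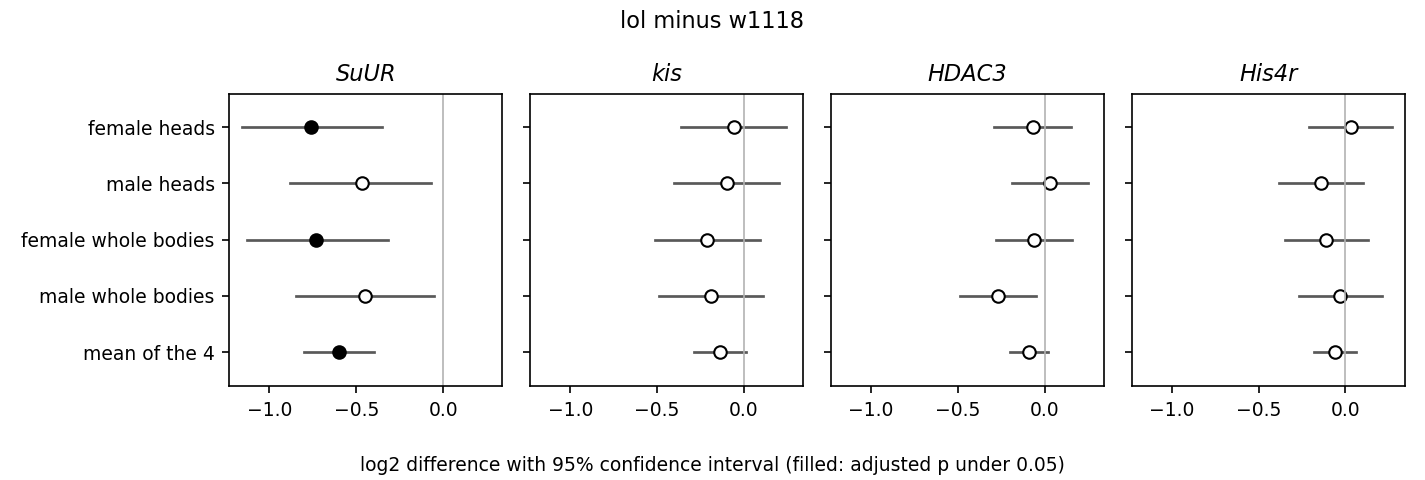
Log2 difference, lol minus w1118 (x axis), of each transcript in female heads, male heads, female whole bodies, male whole bodies and averaged over the 4 (rows), with 95% confidence intervals from the limma fit. Filled points had an adjusted p under 0.05. SuUR has 3 filled points, at -0.76, -0.73 and -0.60, and the other transcripts have none.

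**Figure D4:**
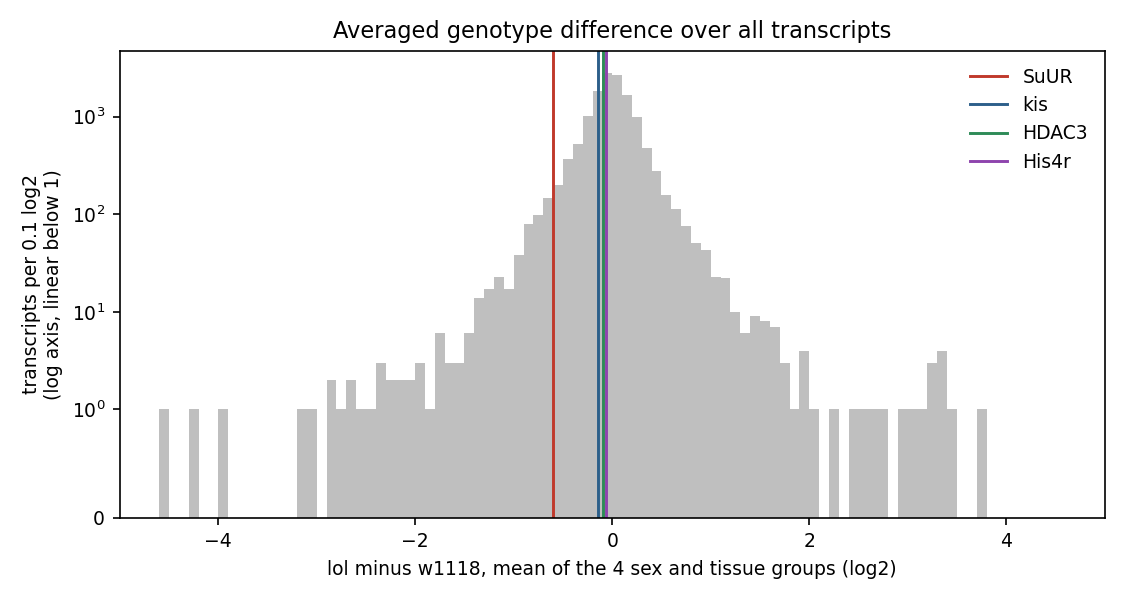
Number of transcripts (y axis, log scale that is linear below 1) by averaged log2 difference, lol minus w1118 (x axis, bins of 0.1), over all 13873 transcripts, with lines at the 4 transcripts. SuUR lies at -0.60 in the lower flank, and kis (-0.14), HDAC3 (-0.09) and His4r (-0.06) lie in the central bins.

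SuUR was also higher in female than in male whole bodies, past the threshold in w1118. In lol the difference was 0.41, and the lol female arrays all lay above the lol male arrays. That difference did not pass (95% interval 0 to 0.81, adjusted p = 0.0771, limma). In w1118 it was 0.68 ± 0.19 (SE) log2, at 13.48 ± 0.12 in females and 12.80 ± 0.33 in males (SD, n = 3 each; adjusted p = 0.00732, limma), and it just missed the threshold without w1118 male body replicate 2 (0.50, adjusted p = 0.0502). These values were set beside the differences of all transcripts, whose median, female minus male in bodies, was 0.38 log2 in lol and 0.26 in w1118. It is a median of differences taken transcript by transcript, while the array medians themselves lay between 12.1 and 12.25. Relative to that median difference SuUR differed by 0.03 in lol and 0.42 in w1118. In heads the sexes differed by -0.14 in lol and 0.14 in w1118 (adjusted p = 1 and 0.864). Heads and bodies did not pass in either strain or sex, at differences of -0.25 in lol females, -0.22 in w1118 females, 0.29 in lol males and 0.32 in w1118 males.

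For the kis transcript measured, the strains did not differ past the threshold in any group. RefSeq lists 6 transcripts of kis, and which of them the probes detect was not tested. Its levels were 14.77, 14.52 and 14.27 in lol female heads, against 14.51, 14.55 and 14.69 in w1118 female heads. In male heads they were 14.43, 14.18 and 14.62 in lol, against 14.64, 14.61 and 14.25 in w1118. The strains overlapped in both, and the log2 differences were -0.06 (95% interval -0.36 to 0.24) in females and -0.10 (-0.40 to 0.20) in males. In female whole bodies the levels were 14.24, 14.20 and 14.09 in lol, against 14.41, 14.25 and 14.49 in w1118. The lol arrays lay just below the w1118 arrays there, and the difference of -0.21 did not pass (95% interval -0.51 to 0.09, adjusted p = 0.585, limma). In male whole bodies they were 13.57, 13.64 and 13.83 in lol, against 13.97, 13.95 and 13.69 in w1118, with a difference of -0.19 (-0.49 to 0.11). The averaged difference was -0.14 ± 0.07 (SE), with a 95% interval of -0.29 to 0.01 and an adjusted p of 0.204. The mean was lower in lol in 4 of 4 groups, but in heads the sign turned with single arrays left out: to 0.06 in females without lol replicate 3 and to 0.02 in males without lol replicate 2, and to 0.15 in males without the 4 head arrays. In male bodies kis was called with array weights in the fit (-0.26, adjusted p = 0.0251).

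The called differences of kis lay between sexes and between tissues, with male whole bodies lowest in both strains. In whole bodies kis was higher in females than in males by 0.50 ± 0.14 (SE) log2 in lol (adjusted p = 0.00613, limma) and by 0.51 ± 0.14 in w1118 (adjusted p = 0.00667). Set against the median difference of all transcripts, these differences were 0.12 in lol and 0.25 in w1118. In males kis was higher in heads than in bodies by 0.73 ± 0.14 in lol (adjusted p = 0.000207, limma) and by 0.63 ± 0.14 in w1118 (adjusted p = 0.000944). The median difference of all transcripts there was 0.25 in lol and 0.16 in w1118. On the w1118 male head arrays kis stood at 14.64 and 14.61 on replicates 1 and 2, the arrays with raised body transcripts, and at 14.25 on replicate 3. Without the 4 head arrays the w1118 difference was 0.38 and not called (adjusted p = 0.103), and the lol difference was 0.72 (adjusted p = 0.000585). In females the heads stood 0.34 above the bodies in lol (adjusted p = 0.0678) and 0.20 above them in w1118 (adjusted p = 0.295). Neither passed, and the head arrays lay above the body arrays in both strains. In lol females the difference was called without lol female head replicate 3 (0.47, adjusted p = 0.0196, limma). It was 0.22 without the 4 head arrays, which include lol female head replicate 1.

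HDAC3 varied little between replicates and between strains. The residual SD of its values was 0.11 log2, and 6.01% of transcripts had a smaller one. In lol female heads its levels were 12.85, 13.05 and 12.90, against 12.88, 13.06 and 13.06 in w1118. In male heads they were 12.97, 13.09 and 13.08 in lol, against 13.03, 13.02 and 13.01 in w1118. In female whole bodies they were 12.86, 13.05 and 13.28 in lol, against 13.04, 13.14 and 13.19 in w1118. The strains overlapped in these 3 comparisons, with differences of -0.07 (95% interval -0.29 to 0.15), 0.03 (-0.19 to 0.25) and -0.06 (-0.28 to 0.16) log2. In male whole bodies HDAC3 stood at 12.23, 12.20 and 12.24 in lol, against 12.36, 12.46 and 12.65 in w1118, without overlap. That difference of -0.27 ± 0.10 (SE) did not pass after adjustment (95% interval -0.49 to -0.05, adjusted p = 0.125, limma), and the averaged difference was -0.09 (-0.20 to 0.02, adjusted p = 0.262).

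The main pattern of HDAC3 was a low level in male whole bodies of both strains, with the other 6 groups between 12.93 and 13.12. Females exceeded males in whole bodies by 0.84 ± 0.10 (SE) log2 in lol, a 1.79-fold difference (adjusted p = 1.78e-06, limma), and by 0.63 ± 0.10 in w1118, a 1.55-fold difference (adjusted p = 6.6e-05). Relative to the median difference of all transcripts they were 0.46 in lol and 0.37 in w1118. In heads the sexes differed by -0.12 in lol and -0.02 in w1118, with 95% intervals of -0.34 to 0.10 and -0.24 to 0.20. The sex difference itself was larger in bodies than in heads, by 0.96 ± 0.15 in lol (adjusted p = 6.71e-05) and by 0.65 ± 0.15 in w1118 (adjusted p = 0.00355), a comparison added after the values had been seen. In males, heads stood above bodies by 0.83 in lol (adjusted p = 1.46e-06, limma) and 0.53 in w1118 (adjusted p = 0.000299). These differences lay 0.58 and 0.37 above the median difference of all transcripts. In females heads and bodies differed by -0.13 in lol and -0.12 in w1118 and did not pass. Without the 4 head arrays the difference between male heads and bodies was 0.86 in lol and 0.51 in w1118 (adjusted p = 2.99e-05 and 0.0169).

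The His4r transcript measured passed no test, and its level hardly moved. Its values ran between 14.64 and 15.13 over the 24 arrays, and 2.57% of transcripts had a smaller SD of the 8 group means (0.084 log2). In female heads they were 14.76, 14.73 and 15.03 in lol, against 14.71, 14.89 and 14.81 in w1118. In male heads they were 14.76, 15.13 and 14.72 in lol, against 15.03, 14.91 and 15.09 in w1118. The strains overlapped in both, and in male heads the lol arrays spanned the w1118 arrays. In female whole bodies they were 14.64, 14.78 and 14.80 in lol, against 14.80, 14.95 and 14.80 in w1118, and in male whole bodies 14.89, 14.70 and 14.67 in lol, against 14.82, 14.78 and 14.76 in w1118. The strains differed by 0.03, -0.14, -0.11 and -0.03 log2 in female heads, male heads, female bodies and male bodies. The averaged difference was -0.06 with a 95% interval of -0.18 to 0.06, so that an averaged fall beyond 0.18 log2 lay outside the interval. The highest value in the table was 15.9201, and whether signals at the level of His4r were compressed was not tested. RefSeq lists 4 transcripts of His4r, and which of them the probes detect was not tested. How far the probes separate His4r from the repeated H4 genes, which encode the same protein, was not tested, since probe sequences were not used here.

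His4r did not differ between the sexes past the threshold in either tissue. In bodies, females minus males gave -0.01 log2 in lol bodies (95% interval -0.25 to 0.23) and 0.06 in w1118 bodies (-0.18 to 0.30). Relative to the median difference of all transcripts these were -0.39 and -0.21. The upper bound in lol lay below that median difference of 0.38. In w1118 heads the female arrays all lay below the male arrays, and the difference of -0.20 did not pass (adjusted p = 0.545, limma). Heads against bodies of w1118 males gave 0.22 (95% interval -0.02 to 0.46, adjusted p = 0.112) with no overlap of arrays, and this difference was called when each array was centred on its median (0.26, adjusted p = 0.0444). In lol it was 0.11 in males and 0.10 in females, and in w1118 females -0.04.

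**Figure D5:**
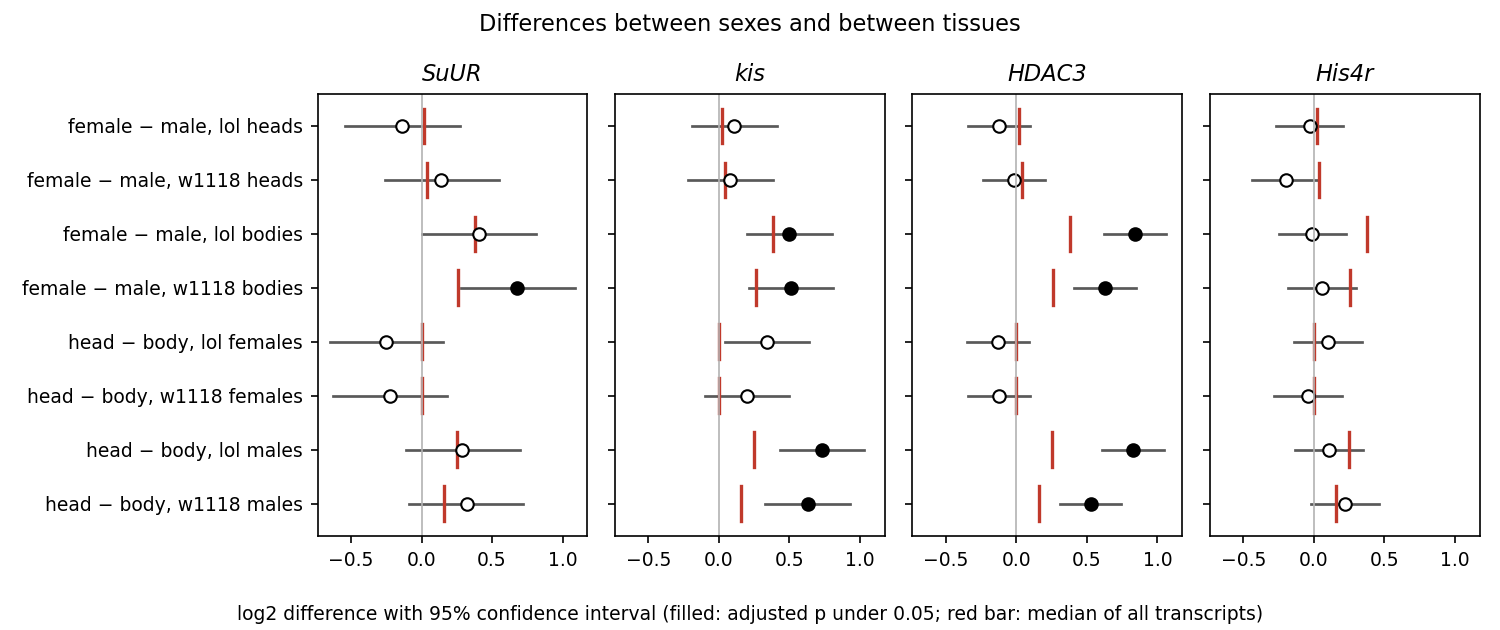
Log2 differences (x axis) of each transcript between females and males within heads and bodies, and between heads and whole bodies within each sex, for lol and w1118 (rows), with 95% confidence intervals from the limma fit. Filled points had an adjusted p under 0.05, and red bars mark the median difference of all transcripts in the same comparison. HDAC3 lies right of the red bar with its whole interval in bodies and in males of both strains, and His4r in lol bodies lies left of it. The whole interval also lies right of the bar for kis in males of both strains and in lol females (heads minus bodies). For SuUR it does so, narrowly, between the sexes in w1118 bodies.

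Counts of calls between sexes and tissues were read against high backgrounds. Between sexes in whole bodies, 2 of 4 were called in lol (kis and HDAC3), where 59.5% of all transcripts were called, and 3 of 4 in w1118 (with SuUR), where 45.3% were. In heads 0 of 4 were called between the sexes in lol and 0 in w1118, and 0.0865% of all transcripts were called in each (limma), with no member at an unadjusted p under 0.05. Between heads and bodies, 2 of 4 (kis and HDAC3) were called in lol males and the same 2 in w1118 males, where 63.2% and 55.1% of all transcripts were called. In females 0 of 4 were called in lol and 0 in w1118, against 37.2% and 38.4% (limma), and kis in lol was the single one at an unadjusted p under 0.05. The sex difference in bodies minus that in heads called 1 of 4 (HDAC3) in lol, against 38.4% of all transcripts, and the same 1 in w1118, against 21.7%.

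Whether the genotype difference depends on sex or tissue was tested for each transcript, and 0 of 4 passed in any of the tests (limma), with no member at an unadjusted p under 0.05. Between the sexes 0% of all transcripts passed in heads, where 251 had an unadjusted p under 0.05, and 0.252% in whole bodies. Between heads and bodies 0.375% passed in females and 0.432% in males. The HDAC3 effect in male heads minus male bodies was 0.30 ± 0.15 (SE) log2 (95% interval -0.01 to 0.61, adjusted p = 0.587), the widest departure from 0 among the 16 values, which otherwise lay between -0.28 and 0.21.

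Ordered by level, the 8 groups of a transcript mostly ran into each other. For SuUR the order from high to low was w1118 female bodies (13.48), w1118 female heads (13.26), w1118 male heads (13.12), w1118 male bodies (12.80), lol female bodies (12.76), lol male heads (12.64), lol female heads (12.51) and lol male bodies (12.35). All 4 w1118 means thus lay above all 4 lol means, but each neighbouring pair overlapped in its arrays. For kis the order was w1118 female heads (14.58), lol female heads (14.52), w1118 male heads (14.50), lol male heads (14.41), w1118 female bodies (14.38), lol female bodies (14.18), w1118 male bodies (13.87) and lol male bodies (13.68). The 4 head groups came first, and the arrays separated only on either side of lol female bodies. For HDAC3 the first 6 groups lay between 13.12 and 12.93 and overlapped as neighbours, and the arrays separated above w1118 male bodies (12.49) and above lol male bodies (12.22). For His4r all 7 neighbouring pairs overlapped, from w1118 male heads (15.01) down to lol female bodies (14.74).

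The factor that held most of the spread of the 8 group means differed between the transcripts. Genotype held 68.1% of the variance of the SuUR means, sex 14.2% and sex together with tissue 13.8%. For kis tissue held 59.5%, sex 23.8% and genotype 5%. For HDAC3 the combination of sex and tissue held 43.7%, sex alone 30.4%, tissue 20.4% and genotype 2.24%. For His4r, with little spread to divide, tissue held 39.1% and the combination of sex and tissue 18.8%. Genotype held 15.2% there, and the combination of genotype, sex and tissue 15.1%. These shares describe group means of 3 arrays and carry no test.

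As a description over the 8 group means, kis and HDAC3 had the most similar profiles of the 4 (Pearson r = 0.88), and SuUR and His4r the least similar (0.37). Among all measured transcripts, FBtr0082475 (r = 0.991) and FBtr0076726 (0.98) were most like SuUR, and 64 had an r of at least 0.9. The closest named transcripts come from a small pool, the 16 with an unambiguous gene name, with the 4 members left out. Among them LanA, which encodes the alpha chain of laminin, came closest to SuUR at 0.804. The closest to kis were FBtr0074276 (0.996) and FBtr0081933 (0.995), with alpha-Spec, which encodes alpha spectrin of the membrane skeleton, at 0.953. The closest to HDAC3 were FBtr0087336 (0.993) and FBtr0075495 (0.991), with mio, which encodes the GATOR2 component missing oocyte, at 0.949. As many as 1717 transcripts reached 0.9 with kis and 929 with HDAC3, so likeness to these broad sex and tissue profiles is common. For His4r, 1 transcript reached 0.9 (FBtr0081068, 0.939), followed by FBtr0080474 (0.878), and the closest named one was fend at 0.646. All points share the same 24 arrays.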

How the data were processed

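The authors deposited log2 expression values per FlyBase transcript, made with RMA per the submitters' processing notes. Neither its version nor the set of arrays normalized jointly is given in these sources. Base 2 was read from the values (6.6134 to 15.9201). The array design held 16637 transcripts with 8 probes each, per the labels. The table lists 15595 transcripts, and 1722 without any value were dropped, which gave 13873. Array medians lay between 12.1 and 12.25. Arrays have no count depth, and their number limits the precision. The labels call the 3 arrays of a group separate cultures.

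Names came from the Release 6 gene table, where 16 measured IDs pair with a single gene. No sequence or genome position was used. All transcripts and arrays entered 1 limma model (version 3.58.1, R 4.3.3) of 8 group means, with Benjamini-Hochberg adjustment within a comparison. The model was tested on simulated data. The 4 transcripts, lists and alternatives were chosen with earlier results of these data known, and the sex difference in bodies minus heads was added after the values had been seen. The named transcripts are the 4 themselves and, for each, the 2 most correlated transcripts and the most correlated named one. Alternatives were a variance prior with intensity trend and robust fit, fits to fewer arrays, a second quantile normalization, centring on array medians, removal of the lowest 25% of transcripts, array weights, the replicate number as a block, each array left out in turn, and 4 head arrays left out together.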

Additional observations from a re-analysis of the deposited data

Results flagged for a closer look

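In a comparison added after the values had been seen, the sex difference of HDAC3 was larger in whole bodies than in heads. By an interaction in the limma fit, it was larger by 0.96 log2 in lol (adjusted p = 6.71e-05) and by 0.65 log2 in w1118 (adjusted p = 0.00355). The median of this value over all transcripts was 0.34 in lol and 0.20 in w1118, and 38.4% and 21.7% of transcripts were called. In every alternative run both calls held, with values between 0.85 and 1.06 in lol and between 0.58 and 0.74 in w1118.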

How the results depend on the processing

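Over 76 results (4 transcripts in 19 comparisons), 65 kept their call under every alternative run, 11 changed it under at least 1, and 0 changed direction with a call. SuUR between the strains in female heads was not called with the 6 compared arrays (-0.76), with head arrays (-0.76) or without the 4 head arrays (-0.74), and with single arrays left out it lay between -0.90 and -0.60. In female whole bodies it lay between -0.79 and -0.67 with single arrays left out. With array weights, SuUR (-0.45) and kis (-0.26) were called between the strains in male bodies, SuUR between the sexes in lol bodies (0.33), kis between heads and bodies of lol females (0.39) and kis for the sex difference in bodies minus heads of lol (0.42). The kis difference between heads and bodies of lol females was also called with an intensity trend (0.34) and ran from 0.22 to 0.47 with single arrays left out. Without the 4 head arrays kis was not called between heads and bodies of w1118 males (0.38), and with median centring His4r was (0.26). SuUR between the sexes in w1118 bodies ran from 0.50 to 0.82 with single arrays left out, and its sex difference in bodies minus heads of lol from 0.39 to 0.71 (called without lol male head replicate 1). The causes were not tested.

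The background counts moved too. The 503 transcripts called in female heads were 171 in a fit of the compared groups, 242 in a fit of heads, 1012 under array weights and 304 without w1118 replicate 2. The 649 in male heads were 59, 309 and 2290 in the same settings, 225 without the 4 head arrays and 385 to 1268 with single arrays left out. The 676 in female bodies were 1346 with array weights, and as few as 356 without 1 array. The 1200 in male bodies were 782 in a fit of the compared groups, 5115 under array weights and as few as 612 without 1 array. The replicate number as a block changed no call of the 4 transcripts (SuUR averaged -0.60, adjusted p = 0.000117) and gave 568, 741, 838 and 1321 calls in the 4 comparisons between the strains. The labels give the numbers no shared batch or day, and they were not treated as pairs. Same-numbered arrays of different groups had correlations of their deviations between -0.594 and 0.67 (median 0.115, against -0.088 for different numbers), and 44 of 84 pairs exceeded 0.1. In 84 of 168 cases an array correlated best with its own number in another group. A blind pick among the 3 arrays of a group would match in 1 of 3 cases, a lower share.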
